A study of Mus musculus with 12 samples.

Results

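The genes described here are 8 genes known for gamma delta T cells, Sox13, Blk, Maf, Il17re, Zbtb16, Trgv5, Il23r and 5830411N06Rik, chosen by symbol from the array's platform annotation out of 19057 genes with a symbol. They and the related lists were chosen with earlier results of these data known, so their counts beside those of all genes are a description. The 8 genes had 13 probes. A probe was tested when its detection p, which sets its signal against the array's negative controls, was under 0.05 on at least 3 of the 12 arrays. By that filter 9 probes of 6 genes were tested, and Maf and Il23r were not. RNA came from thymocytes sorted as CD4-CD8 double-negative (DN) from C57 BL/6 mice aged 2 to 3 months, and about 300 ng of it was hybridised per Illumina MouseWG-6 v2.0 array. The NHD13 Lyl1-knockout group (3 arrays) carried the NHD13 transgene, which joins part of Nup98, a nuclear pore protein, to part of the homeobox protein Hoxd13, and lacked Lyl1, a basic helix-loop-helix (bHLH) factor active in blood stem and progenitor cells. The NHD13 group (3 arrays) carried the transgene alone, and the wild-type group (6 arrays) carried neither change. No group lacked Lyl1 without the transgene. By its title the series concerns self-renewal of thymocytes under the fusion through Lmo2, an adaptor protein, and Lyl1. Separate animals are not stated for the arrays of a group, so the p-values speak only of the spread among these samples, which may be technical.

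Gamma delta T cells branch off from DN thymocytes and carry a T cell receptor of gamma and delta chains in place of alpha and beta chains. In the mouse thymus a part of them is set up early to make the cytokine IL-17, under transcription factors such as Sox13 and Maf, with the kinase Blk and the receptor for IL-23. Others are set up to make interferon gamma, and a subset with the zinc finger protein PLZF, the product of Zbtb16, resembles innate-like T cells. The DN gate holds gamma delta cells beside early alpha beta precursors, and in such bulk samples fewer cells of a type and less RNA per cell cannot be told apart.

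Promoter sequences are shown for the 2 of these genes that were higher in NHD13 than in wild type and have an entry in the RefSeq promoter table (build GRCm38.p6). Each runs from 250 bases before to 50 bases after the annotated start, and capitals mark 3 motifs searched on both strands: the E-box CANNTG, which bHLH proteins bind, the HMG-box core ACAAAG and the nuclear receptor half-site AGGTCA. The Sox13 window lies at chr1:133424163-133424462 on the minus strand. The window of 5830411N06Rik lies at chr7:140247051-140247350 on the plus strand and is the first of 3 overlapping annotated starts. Of 32851 promoter windows of this length, 72.3% hold an E-box, 18.7% the HMG-box core and 16.3% the half-site.
Sox13: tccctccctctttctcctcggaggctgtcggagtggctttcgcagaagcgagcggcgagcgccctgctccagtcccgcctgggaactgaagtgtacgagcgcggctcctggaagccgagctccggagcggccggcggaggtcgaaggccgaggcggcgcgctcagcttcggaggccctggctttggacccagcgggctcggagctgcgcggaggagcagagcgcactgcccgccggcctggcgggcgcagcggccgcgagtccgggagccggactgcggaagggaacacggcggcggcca
5830411N06Rik: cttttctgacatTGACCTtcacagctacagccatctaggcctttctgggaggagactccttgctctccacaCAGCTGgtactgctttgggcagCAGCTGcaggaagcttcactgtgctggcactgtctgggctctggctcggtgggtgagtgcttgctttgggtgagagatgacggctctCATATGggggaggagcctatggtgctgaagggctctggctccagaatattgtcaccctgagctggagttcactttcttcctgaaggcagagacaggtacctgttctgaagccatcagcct
The Sox13 window holds 0 matches to the 3 motifs, and that of 5830411N06Rik holds 3 E-boxes and 1 half-site. The windows of its other 2 starts each hold 2 E-boxes, 1 HMG-box core and 1 half-site. A match describes the letters only.

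The targeted gene followed its labels. Lyl1 was not detected on any of the 3 NHD13 Lyl1-knockout arrays (4.75, 4.73 and 4.68 on the normalised log2 scale), against 11.18, 11.19 and 11.10 on the NHD13 arrays and 6.79 to 7.39 on the wild-type arrays (median 7.28). It was at least 53.95-fold lower in NHD13 Lyl1-knockout than in NHD13 thymocytes (adjusted p = 2.56e-09 by limma's moderated test). The sources used here do not give the position of its probe relative to the deleted part. One array stood apart: NHD13 Lyl1-knockout replicate 1 read 9.58 for Cd3e, part of the CD3 complex, against 13.15 and 13.09 on the other NHD13 Lyl1-knockout arrays, and 14.28 for Mpo, an enzyme of myeloid granules, against 5.27 and 4.64. Values without this array are given for the calls of the 8 genes, and counts and medians without it for the lists. The arrays further fell into a class with a narrow spread of the signals of undetected probes (the 3 NHD13 Lyl1-knockout arrays and wild-type replicates 1 to 3) and a class with a wide spread (the 3 NHD13 arrays and wild-type replicates 4 to 6). NHD13 Lyl1-knockout and NHD13 never share a class, so class and genotype cannot be told apart between them except through the wild-type arrays. Xist, the RNA of the silenced X chromosome, was low (4.57 to 4.83) on wild-type replicates 1 to 3 and NHD13 Lyl1-knockout replicate 3 and high (10.83 to 12.71) on the other arrays. Among the wild-type arrays Xist and background class thus split the same way. Fits that use the class therefore cannot separate it from what goes with Xist. Each array detected 17168 to 19464 of 45281 probes, summed signals ran from 18826428 to 35384740.2 intensity units, and the number of arrays limits the precision.

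Against NHD13, NHD13 Lyl1-knockout thymocytes had lower Trgv5, Blk and 5830411N06Rik, by 17.5-fold, 8.47-fold and 5.99-fold, the last detected on 1 of the 3 NHD13 Lyl1-knockout arrays. None of the 6 tested genes was called higher. Sox13, Il17re and Zbtb16 did not pass the test. So 3 of 6 were called, all lower, where 9.22% of all 10497 tested genes were lower and 22.2% were called in either direction, 1361 of them higher (adjusted p under 0.05, Benjamini-Hochberg over all tested probes). The median log2 difference of the 6 was −1.78, against 0.06 over all tested genes. The median rests on genes that passed the filter on dim signals, and 2 of the 8 did not. Again 3 were called lower and 0 higher without NHD13 Lyl1-knockout replicate 1, with a median of −1.43. Of all 10497 tested genes, 945 were lower and 1326 higher in that fit.

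Against wild type, NHD13 thymocytes had higher Trgv5, 5830411N06Rik and Sox13, by 12.5-fold, 2.49-fold and 2.35-fold, and none of the 6 was called lower. The share of all tested genes was 11.6% higher and 12.6% lower, and the median log2 difference was 1.27 for the 6 genes and −0.00108 for all. NHD13 Lyl1-knockout against wild type gave 1 lower gene, 5830411N06Rik, and 0 higher, beside 3.81% and 4.49% of all tested genes, with medians of −0.18 and 0.08. The median of the 6 turned to 0.28 without NHD13 Lyl1-knockout replicate 1, so this array sets its sign. In that fit 1 was lower and 0 higher, beside 239 and 321 of all 10497 tested genes. Without the same array 4 of the 6 were called higher in NHD13 than in wild type. Of all tested genes 1477 were then higher, against 1216 with every array. Each pair of these 3 comparisons shares the arrays of 1 group, so the same gene can be called in both through the same values. Scaling each array to its median in place of quantile normalisation moved the median of all probes to 0.26 for NHD13 against wild type and 0.24 for NHD13 Lyl1-knockout against wild type. Under it, 3456 of 4294 called probes were higher in NHD13, in place of 1999 of 4295, and 2218 of 2996 were higher in NHD13 Lyl1-knockout, in place of 831 of 1953. Under that scaling, as under quantile normalisation, 3 of the 6 tested genes were called for NHD13 Lyl1-knockout against NHD13. Again 3 were called for NHD13 against wild type and 1 for NHD13 Lyl1-knockout against wild type.

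**Figure D1:**
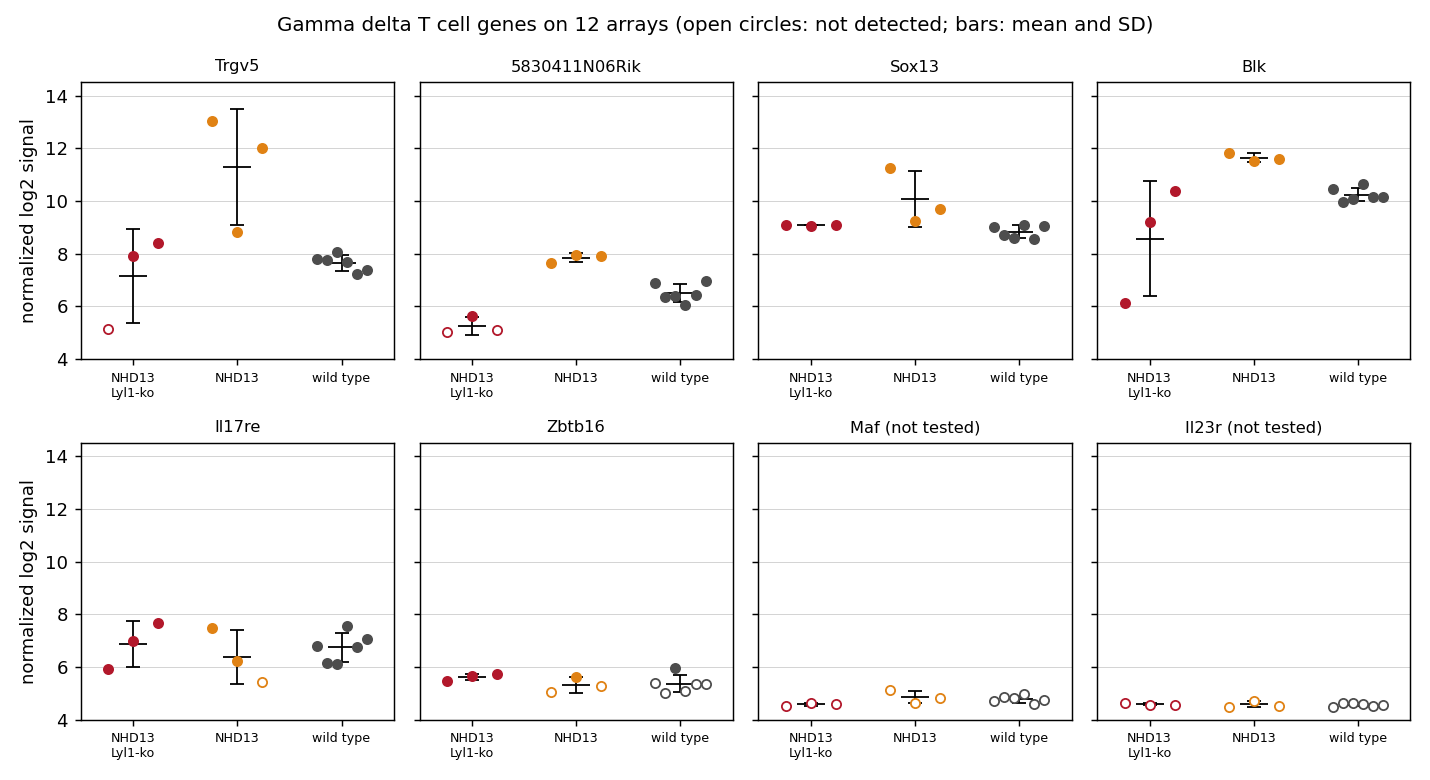
Normalised log2 signal (y axis) of the brightest probe of each of the 8 genes on the 12 arrays, by group; points are arrays, open where the probe was not detected, with the group mean and SD as bars. The 3 NHD13 arrays lie above every wild-type and NHD13 Lyl1-knockout array for Trgv5, 5830411N06Rik, Sox13 and Blk, and all arrays of Maf and Il23r are open.

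Trgv5 is a variable segment of the T cell receptor gamma chain, and its signal was high in NHD13. It read 5.13 (not detected), 7.93 and 8.39 on NHD13 Lyl1-knockout replicates 1, 2 and 3 and 13.03, 8.82 and 11.99 on NHD13 replicates 1, 2 and 3. Wild-type arrays read 7.23 to 8.05, with a median of 7.71. All 3 NHD13 arrays lay above both other groups, which overlapped, and the NHD13 arrays differed among themselves by more than 4 units. The group means were 7.15 ± 1.77 in NHD13 Lyl1-knockout (SD, n = 3), 11.28 ± 2.19 in NHD13 (n = 3) and 7.64 ± 0.30 in wild type (n = 6). The log2 difference was −4.13 ± 0.96 (SE) for NHD13 Lyl1-knockout against NHD13 (limma adjusted p = 0.0113) and 3.64 ± 0.83 for NHD13 against wild type (limma adjusted p = 0.00976). NHD13 Lyl1-knockout against wild type gave −0.49 ± 0.83 (limma adjusted p = 0.755), which is within the spread. Without NHD13 Lyl1-knockout replicate 1 the first difference was −3.12 (limma adjusted p = 0.0290), and the last turned to 0.52 (0.774). The call against wild type was lost without NHD13 replicate 3 (3.28, limma adjusted p = 0.0545). The call against NHD13 was lost in a fit of those 2 groups alone (0.0874) and with the background class as a block (−4.57, limma adjusted p = 0.0515). Against the wild-type arrays of its own class NHD13 was higher by 3.86 (limma adjusted p = 0.0326).

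Of 34 gamma and delta receptor names searched beside Trgv5, 3 had a probe, Trgv4, Trgv6 and Trgv7. They neighbour Trgv5 in the order Trgv7, Trgv4, Trgv6, Trgv5 in RefSeq's gene table. The probes' sequences were not used here, so which segment a probe reads is uncertain. Trgv6 was not detected on any array. Trgv7 read 5.78, 7.62 and 7.95 on the NHD13 Lyl1-knockout arrays, 11.99, 8.25 and 11.23 on the NHD13 arrays, and 7.02 to 7.82 (median 7.35) on the wild-type arrays. That is the order seen in Trgv5, with NHD13 above both other groups and replicate 2 the lowest of NHD13. Its log2 difference was −3.38 ± 0.79 for NHD13 Lyl1-knockout against NHD13 (limma adjusted p = 0.0120, and −2.71 at 0.0356 without NHD13 Lyl1-knockout replicate 1) and 3.09 ± 0.69 for NHD13 against wild type (limma adjusted p = 0.00865). Both calls were lost without NHD13 replicate 3 (limma adjusted p = 0.0504 and 0.0519) and with the replicate block (limma adjusted p = 0.0537 and 0.0748). The call against NHD13 was also lost in a fit of those 2 groups alone (limma adjusted p = 0.0879). Trgv4 read 9.32, 12.50 and 13.50 in NHD13 Lyl1-knockout and 14.24, 13.91 and 14.06 in NHD13. Wild type averaged 13.20 ± 0.14 for it (SD, n = 6), with a highest value of 13.42. Trgv4 in NHD13 Lyl1-knockout was lower than in NHD13 by a log2 difference of −2.30 ± 0.74 (limma adjusted p = 0.0461), and by −1.07 without NHD13 Lyl1-knockout replicate 1 (limma adjusted p = 0.0171). That call was lost in 10 of the 12 fits that leave out 1 array (limma adjusted p = 0.0552 to 0.107), and NHD13 against wild type gave 0.87 ± 0.64 (limma adjusted p = 0.374). Delta chain genes had no probe under the symbols searched.

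5830411N06Rik, also called Scart2, encodes a scavenger receptor cysteine-rich protein found on gamma delta T cells, and it differed in all 3 comparisons. It read 5.02, 5.63 and 5.12 on the NHD13 Lyl1-knockout arrays, of which only replicate 2 detected it, and 7.64, 7.96 and 7.91 on the NHD13 arrays. Wild-type arrays read 6.07 to 6.97, with a median of 6.42. The 3 groups did not overlap, with NHD13 highest and NHD13 Lyl1-knockout lowest. The means were 5.25 ± 0.33 in NHD13 Lyl1-knockout (SD, n = 3), 7.84 ± 0.17 in NHD13 (n = 3) and 6.52 ± 0.34 in wild type (n = 6). The log2 difference was −2.58 ± 0.25 for NHD13 Lyl1-knockout against NHD13 (limma adjusted p = 0.000132), −1.27 ± 0.22 for NHD13 Lyl1-knockout against wild type (limma adjusted p = 0.00527) and 1.32 ± 0.22 for NHD13 against wild type (limma adjusted p = 0.00191). Without NHD13 Lyl1-knockout replicate 1 the first was −2.46 (limma adjusted p = 0.000246) and the second −1.15 (limma adjusted p = 0.0226). Within the background class NHD13 Lyl1-knockout was lower than wild type by a log2 difference of −1.29 (limma adjusted p = 0.0340), and NHD13 higher by 1.34 (limma adjusted p = 0.0134). The 3 calls held under every alternative run, although without background correction the differences shrank to −1.22, −0.48 and 0.74 in that order of comparisons.

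Sox13 is a transcription factor of the SOX family needed for the IL-17-producing branch of gamma delta cells. It read 9.10, 9.07 and 9.09 on the NHD13 Lyl1-knockout arrays and 11.26, 9.23 and 9.69 on the NHD13 arrays. The wild-type arrays read 8.55 to 9.08, with a median of 8.86. NHD13 replicate 1 was far above the other arrays, while NHD13 replicate 2 lay just above the highest NHD13 Lyl1-knockout array. NHD13 was higher than wild type by 1.23 ± 0.34 (limma adjusted p = 0.0249). NHD13 Lyl1-knockout against NHD13 gave −0.97 ± 0.40 (limma adjusted p = 0.103), and passed without NHD13 replicate 2 (−1.39, limma adjusted p = 0.0361). NHD13 Lyl1-knockout against wild type gave 0.26 ± 0.34 (limma adjusted p = 0.687). Without NHD13 replicate 1 the difference of NHD13 from wild type was 0.63 (limma adjusted p = 0.0459). The call in NHD13 ended with the background class as a block (1.17, limma adjusted p = 0.0728) and within that class (limma adjusted p = 0.139).

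Blk is a kinase of the SRC family, known from B cells and from gamma delta cells that make IL-17, and all 3 of its probes were lower in NHD13 Lyl1-knockout than in NHD13. The brightest (ILMN_2976441) read 6.13, 9.18 and 10.37 on the NHD13 Lyl1-knockout arrays and 11.82, 11.51 and 11.60 on the NHD13 arrays. Wild type read 9.98 to 10.63, with a median of 10.15. The NHD13 arrays lay above both other groups, and the NHD13 Lyl1-knockout arrays spread over more than 4 units, from far below to within the wild-type range. NHD13 Lyl1-knockout against NHD13 gave −3.08 ± 0.75 (limma adjusted p = 0.0140). Without NHD13 Lyl1-knockout replicate 1 it gave −1.87 (limma adjusted p = 0.00272), so that array carries much of the size and not the call. The call was lost in a fit of the 2 groups alone (0.0961) and with the background class as a block (−2.93, limma adjusted p = 0.0954). The other probes gave −3.44 ± 0.80 (ILMN_2976440, limma adjusted p = 0.0112, and −2.15 without NHD13 Lyl1-knockout replicate 1) and −2.16 ± 0.49 (ILMN_2697505, limma adjusted p = 0.0104, and −1.59 at 0.0233 without that array).

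Between NHD13 and wild type the Blk probes differed in their calls. The brightest gave 1.41 ± 0.65 (limma adjusted p = 0.150) and ILMN_2976440 gave 1.47 ± 0.69 (limma adjusted p = 0.156), although NHD13 did not overlap wild type on either. The dim ILMN_2697505 read 8.75, 7.53 and 8.04 in NHD13 and 5.66 to 6.99 in wild type, and passed (1.76 ± 0.43, limma adjusted p = 0.0129), but not without NHD13 replicate 1 (1.43, limma adjusted p = 0.0552). The joint fit shares its spread with the NHD13 Lyl1-knockout arrays. Without NHD13 Lyl1-knockout replicate 1 the 2 brighter probes passed (limma adjusted p = 0.00208 and 0.00189), as they did within the background class (limma adjusted p = 0.00586 and 0.0105). NHD13 Lyl1-knockout against wild type gave −1.68 ± 0.65 on the brightest (limma adjusted p = 0.128), with −0.46 without its replicate 1 (limma adjusted p = 0.401) and −2.58 without its replicate 3 (limma adjusted p = 0.0236).

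**Figure D2:**
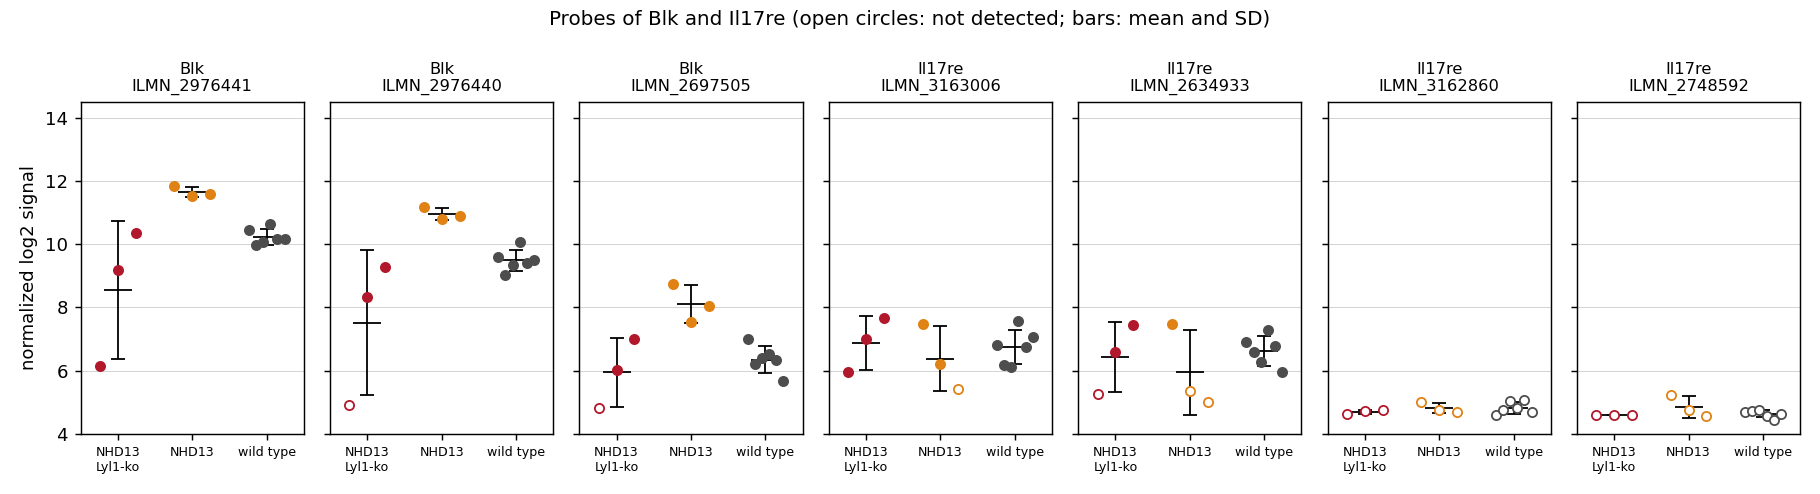
Normalised log2 signal (y axis) of the 3 probes of Blk and the 4 of Il17re on each array, by group; open points were not detected, and bars are the mean and SD. NHD13 lies above wild type on all 3 Blk probes, and no such order appears for Il17re, of which 2 probes were detected on 0 arrays.

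Blk is also a B cell gene, and B cell markers were read beside it. Pax5 and Igll1 of that list were too dim to test, and 6 of its genes were tested. Cd79b, a chain of the B cell receptor complex, was lower in NHD13 Lyl1-knockout than in NHD13 (−1.15 ± 0.36, limma adjusted p = 0.0395), as were 9.22% of all tested genes. That call was lost in 6 of the 12 fits that leave out 1 array (limma adjusted p = 0.0509 to 0.112), its size was −2.14 with the background class as a block, and no other marker was called in any of the 3 comparisons. The log2 summed signal of the 6 was 9.89 to 10.90 on NHD13 Lyl1-knockout arrays, 10.93 to 11.18 on NHD13 arrays and 10.23 to 11.66 on wild-type arrays. The part of B cell RNA in the Blk values was not tested.

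Il17re, a chain of the receptor for IL-17C, showed no order of the groups. Its brightest probe (ILMN_3163006) read 5.95, 7.0 and 7.66 on the NHD13 Lyl1-knockout arrays, 7.48, 6.22 and 5.43 on the NHD13 arrays (the last not detected) and 6.12 to 7.55 (median 6.78) on the wild-type arrays. All groups overlapped. The log2 difference was 0.49 ± 0.55 for NHD13 Lyl1-knockout against NHD13 (limma adjusted p = 0.564), 0.12 ± 0.47 for NHD13 Lyl1-knockout against wild type (limma adjusted p = 0.898) and −0.37 ± 0.47 for NHD13 against wild type (limma adjusted p = 0.628). In the same order of comparisons the second probe (ILMN_2634933) gave limma adjusted p-values of 0.633, 0.864 and 0.426, and the other 2 were detected on 0 of 12 arrays.

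Zbtb16 lay near the limit of detection. It read 5.49, 5.64 and 5.73 on the NHD13 Lyl1-knockout arrays, all 3 detected, and 5.04, 5.62 and 5.28 on the NHD13 arrays, 1 detected. Wild-type arrays read 5.02 to 5.96 (median 5.37), with 1 of 6 detected. The groups overlapped, and NHD13 Lyl1-knockout against NHD13 gave 0.30 ± 0.24 (limma adjusted p = 0.404). NHD13 Lyl1-knockout against wild type gave 0.25 ± 0.21 (limma adjusted p = 0.492), and NHD13 against wild type gave −0.05 ± 0.21 (limma adjusted p = 0.886). Maf, a transcription factor of the IL-17 branch, read 4.52 to 5.11 over the 12 arrays, and Il23r, a chain of the receptor for IL-23, read 4.49 to 4.71. Neither was detected on any array, so their levels could not be compared at this signal.

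**Figure D3:**
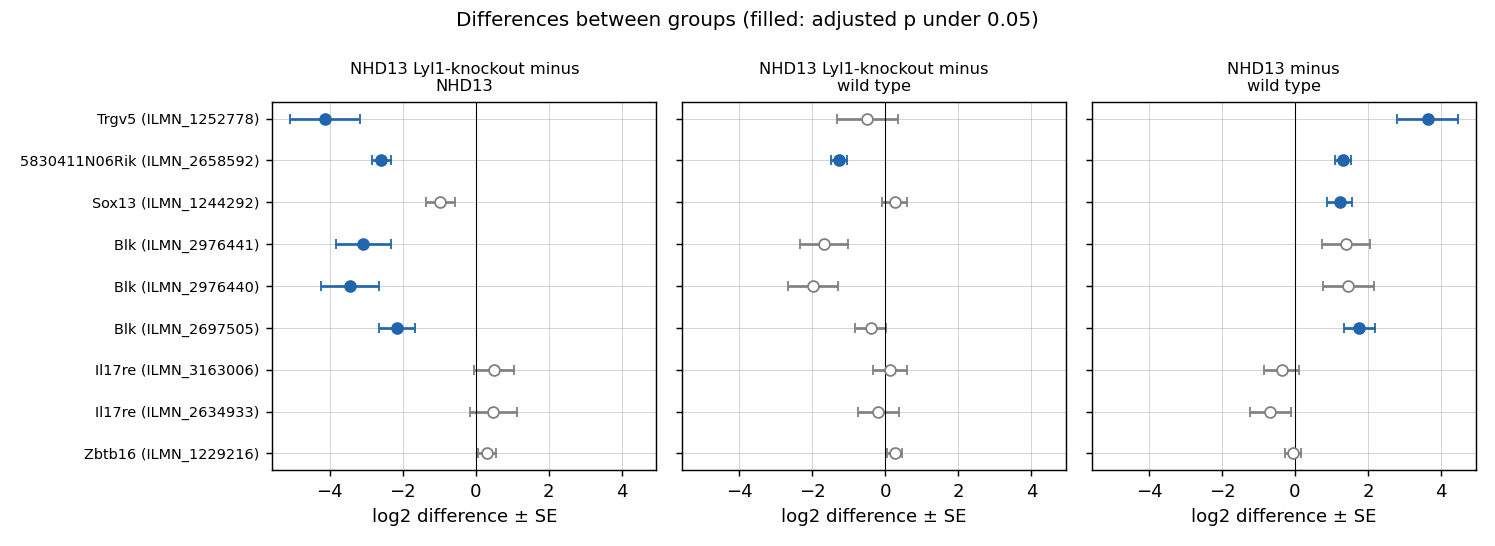
Log2 difference ± SE (x axis) of the 9 tested probes in the 3 comparisons, filled where the limma adjusted p was under 0.05. Trgv5, 5830411N06Rik and Blk lie left of 0 in NHD13 Lyl1-knockout minus NHD13, and 5830411N06Rik alone is filled in all 3 panels.

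Across the 12 arrays the tested genes did not all follow each other. Pearson's r, given as a description since the arrays share 3 genotypes and the array that stood apart, was 0.80 between Sox13 and Trgv5, 0.77 between Blk and Trgv5, 0.76 between Blk and 5830411N06Rik and 0.69 between Trgv5 and 5830411N06Rik. It was 0.46 between Sox13 and 5830411N06Rik and 0.40 between Sox13 and Blk. Il17re and Zbtb16 had r between −0.42 and 0.23 with the other 4 and with each other. Of all tested genes, those most like Trgv5 were Trgv7 (0.99), Enpp5 (0.97) and Oplah (0.96), an enzyme of glutathione breakdown. Those most like Blk were Selenow (0.99), a selenoprotein, Gstp3 (0.98), a glutathione transferase, and Trgv4 (0.97). Sox13 was most like Ankrd6 (0.93), an ankyrin repeat protein of WNT signalling, Kifap3 (0.91), a kinesin adaptor, and Acox2 (0.90), a peroxisomal oxidase. 5830411N06Rik was most like the calpain Capn2, the centriole gene Cep120 and Mpp1 (0.95 each). Il17re was most like the metal transporter Slc11a2 (0.94), Zfp280b and Zcwpw1 (0.88 each), and Zbtb16 was most like Lonrf3 (0.83), Igsf8 (0.79) and Parg (0.78).

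Genes of the IL-17 programme outside the 8 were higher in NHD13 than in wild type for 5 of 14 tested and lower for 0 (median 0.57), beside 11.6% of all tested genes higher and 12.6% lower. They were lower in NHD13 Lyl1-knockout than in NHD13 for 3 of 14 and higher for 0 (median −0.64), beside 9.22% of all tested genes lower. Between NHD13 Lyl1-knockout and wild type 0 of 14 were called (median 0.01), beside 4.49% of all tested genes higher and 3.81% lower. When NHD13 Lyl1-knockout replicate 1 was left out, NHD13 Lyl1-knockout had 5 lower than in NHD13 (median −0.62) and 1 higher than in wild type (median 0.10), and NHD13 had 6 higher than in wild type. Of all 10497 tested genes, those fits called 945 lower, 321 higher and 1477 higher in the same order. Rora, a nuclear receptor of the IL-17 programme, read 5.76, 6.35 and 7.61 on the NHD13 Lyl1-knockout arrays, 8.55, 8.66 and 9.79 on the NHD13 arrays and 6.57 to 7.16 on the wild-type arrays. Only NHD13 stood clear of wild type. Its differences were −2.43 ± 0.43 for NHD13 Lyl1-knockout against NHD13 (limma adjusted p = 0.00300) and 2.17 ± 0.37 for NHD13 against wild type (limma adjusted p = 0.00223), and both calls held without any 1 array. Stat3, which carries signals of IL-23 and IL-6, was higher in NHD13 than in wild type by 1.09 ± 0.19 (limma adjusted p = 0.00223). Against NHD13 it was lower in NHD13 Lyl1-knockout (−0.80 ± 0.21, limma adjusted p = 0.0213). That call was lost in 3 of the 12 fits that leave out 1 array, without NHD13 replicates 2 or 3 or NHD13 Lyl1-knockout replicate 3 (limma adjusted p = 0.0743 to 0.0798). It was also lost with the background class as a block (−0.89, limma adjusted p = 0.0696) and under median scaling (limma adjusted p = 0.0812). The same held in a fit of the 2 groups alone (limma adjusted p = 0.0769) and with the replicate block (0.0606).

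Etv5, a transcription factor of the ETS family, was lower in NHD13 Lyl1-knockout than in NHD13 (−1.99 ± 0.49, limma adjusted p = 0.0152) and higher in NHD13 than in wild type (1.51 ± 0.43, limma adjusted p = 0.0262). The second call was lost without NHD13 replicate 1 (0.93, limma adjusted p = 0.108) and without wild-type replicate 2 (0.0501), and both were lost with the background class as a block (limma adjusted p = 0.180 and 0.108). Il17ra, the shared chain of the IL-17 receptors, was higher in NHD13 (1.05 ± 0.25, limma adjusted p = 0.0112), except without NHD13 replicate 2 (0.0546). Cd163l1, a scavenger receptor related to 5830411N06Rik, was higher in NHD13 (2.36 ± 0.76, limma adjusted p = 0.0448), and that call was lost in 10 of the 12 fits that leave out 1 array (limma adjusted p = 0.0516 to 0.140). The difference stayed at 2.23 to 2.46 in those 12 fits, and the limma adjusted p was 0.000120 without NHD13 Lyl1-knockout replicate 1. It read 8.94, 12.49 and 13.97 on the NHD13 Lyl1-knockout arrays, 13.59, 13.90 and 13.45 on the NHD13 arrays and 11.16 to 11.43 on the wild-type arrays. Batf, an AP-1 factor, gave 0.86 ± 0.31 for NHD13 against wild type (limma adjusted p = 0.0661).

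**Figure D4:**
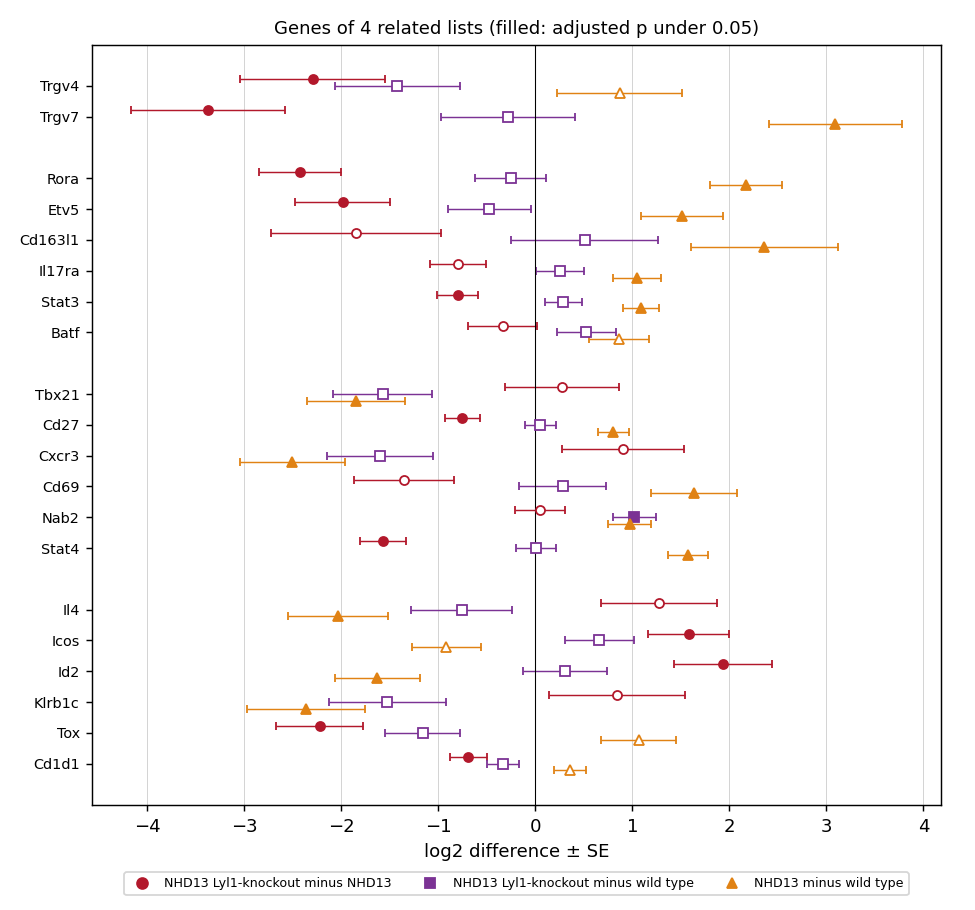
Log2 difference ± SE (x axis) of the named genes of the 4 related lists in the 3 comparisons, filled where the limma adjusted p was under 0.05; from the top, receptor genes, the IL-17 programme, the interferon-gamma programme and receptor strength, and the Zbtb16 programme. Rora, Etv5 and Stat3 lie right of 0 in NHD13 minus wild type and left of 0 in NHD13 Lyl1-knockout minus NHD13. Il4 was not detected in NHD13, so its plotted NHD13 differences are fitted values set against a group at background, and not bounds.

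Of 12 tested genes of the interferon-gamma programme and of receptor strength, 4 were higher and 2 lower in NHD13 than in wild type (median 0.27), beside 11.6% and 12.6% of all tested genes, and 6 did not pass. Stat4, a transducer of IL-12 signals, was higher by 1.58 ± 0.21 (limma adjusted p = 0.000512), and Cd27, a TNF receptor that marks the interferon-gamma branch, by 0.80 ± 0.16 (limma adjusted p = 0.00452). The activation marker Cd69 was higher by 1.64 ± 0.44 (limma adjusted p = 0.0219, but 0.87 at 0.0627 when NHD13 replicate 3 was left out) and the EGR cofactor Nab2 by 0.97 ± 0.22 (limma adjusted p = 0.0105). The branch's own factor Tbx21 was lower (−1.85 ± 0.51, limma adjusted p = 0.0227, lost without NHD13 replicates 1 or 3 at 0.0637 and 0.0971), as was the chemokine receptor Cxcr3 (−2.50 ± 0.55, limma adjusted p = 0.00786). NHD13 Lyl1-knockout against NHD13 had 0 of 12 higher and 2 lower (median −0.12, and 0.35 without NHD13 Lyl1-knockout replicate 1, with the same counts), beside 9.22% of all tested genes lower. The 2 were Stat4 (−1.57 ± 0.24, limma adjusted p = 0.00148) and Cd27 (−0.75 ± 0.18, limma adjusted p = 0.0132, and −0.33 at 0.245 under median scaling). Against wild type, Nab2 was the 1 gene higher in NHD13 Lyl1-knockout (1.02 ± 0.22, limma adjusted p = 0.0172), lost without NHD13 Lyl1-knockout replicates 2 or 3 (0.0549 and 0.0639). Of all tested genes 4.49% were higher and 3.81% lower in that comparison. The median of the 12 was −0.06 there, and 0.46 without replicate 1.

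Of the innate-like T cell genes of the Zbtb16 programme, 3 of 10 were lower in NHD13 than in wild type and 0 higher (median 0.14), beside 12.6% of all tested genes lower. These were Id2, an inhibitor of E proteins (−1.63 ± 0.44, limma adjusted p = 0.0203), the NK receptor Klrb1c (−2.37 ± 0.61, limma adjusted p = 0.0169) and the cytokine Il4. Il4 was not detected on any NHD13 array and on all 6 wild-type arrays, and was at least 2.56-fold lower in NHD13 (limma adjusted p = 0.0166). The 3 calls were each lost in 2 of the 12 fits that leave out 1 array, Id2 without NHD13 replicates 1 or 3 (0.0805 and 0.107), and Klrb1c and Il4 without NHD13 replicates 2 or 3 (limma adjusted p = 0.0550 to 0.0650). Against NHD13, NHD13 Lyl1-knockout had 2 of 10 higher and 2 lower (median −0.82), and 3 higher and 1 lower without NHD13 Lyl1-knockout replicate 1 (median 0.02). Of all 10497 tested genes 1361 were higher and 968 lower, and 1326 and 945 without that array. Between NHD13 Lyl1-knockout and wild type 0 of 10 were called (median −0.75, and −0.17 without that array). Of all tested genes 4.49% were higher and 3.81% lower there. In NHD13 Lyl1-knockout against NHD13, the costimulator Icos (1.58 ± 0.41, limma adjusted p = 0.0190) and Id2 (1.94 ± 0.50, limma adjusted p = 0.0185) were higher. Tox, a nuclear factor of T cell development (−2.22 ± 0.45, limma adjusted p = 0.00589, and −1.52 without NHD13 Lyl1-knockout replicate 1), and the antigen-presenting molecule Cd1d1 (−0.69 ± 0.19, limma adjusted p = 0.0244) were lower. Of these, only Tox kept its call without each array in turn, and Icos, Id2 and Cd1d1 were lost in 4, 3 and 4 of 12 such fits (limma adjusted p = 0.0553 to 0.0884). With the background class as a block Id2 gave 1.22 (limma adjusted p = 0.232). NHD13 Lyl1-knockout replicate 3 read 7.88 for Il4, 9.25 for Klrb1c, 9.37 for Cxcr3 and 7.90 for Tbx21, above replicates 1 and 2 (4.82 and 5.37, 5.27 and 6.45, 6.32 and 6.60, 4.67 and 6.17 in that order of genes). It was the highest NHD13 Lyl1-knockout array for Trgv5 and Blk too.

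**Figure D5:**
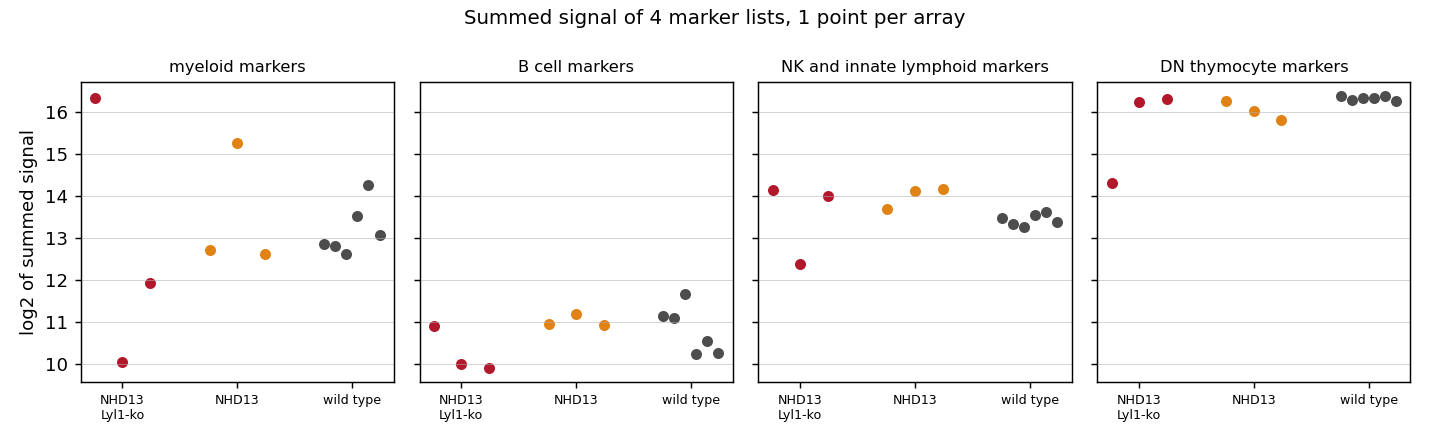
Log2 of the summed signal (y axis) of the tested markers of 4 cell types on each array, by group. The myeloid sum of NHD13 Lyl1-knockout runs from 10.03 to 16.33, its highest point being replicate 1, which is also the lowest point among DN thymocyte markers.

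Markers of other cells that a DN gate could hold were read on the same arrays. Of 13 tested myeloid markers 0 were called in any of the 3 comparisons. Of all tested genes 22.2% were called for NHD13 Lyl1-knockout against NHD13. Against wild type, 4.49% were higher and 3.81% lower in NHD13 Lyl1-knockout, and 11.6% and 12.6% in NHD13. Leaving out NHD13 Lyl1-knockout replicate 1, 5 of the 13 markers were lower in NHD13 Lyl1-knockout than in NHD13 and 3 lower than in wild type. In NHD13 against wild type 2 were then higher and 1 lower. Of all 10497 tested genes, 945 and 239 were lower in the first 2 of these fits. In the last, 1477 were higher and 1527 lower. With all arrays the log2 summed signal of the 13 myeloid markers ran from 10.03 to 16.33 on NHD13 Lyl1-knockout arrays, 12.62 to 15.26 on NHD13 arrays and 12.62 to 14.26 on wild-type arrays. The high NHD13 array was replicate 2 (15.26, against 12.71 and 12.62 on replicates 1 and 3). It was also the lowest NHD13 array for Trgv5, Trgv7, Trgv4, Sox13 and Blk. It was the highest for 5830411N06Rik (7.96) and Zbtb16 (5.62), and in the middle for the brightest Il17re probe. Of 11 NK and innate lymphoid markers 1 was higher and 5 lower in NHD13 than in wild type, beside 11.6% and 12.6% of all tested genes. The 1 was Nkg7 (1.47, limma adjusted p = 0.00668). The 5 were Klrk1, Klrc1, Klrb1c, Id2 and Tbx21, each lost in 2 of the 12 fits that leave out 1 array. Against NHD13, NHD13 Lyl1-knockout had 1 higher and 1 lower, beside 1361 of 10497 tested genes higher and 9.22% lower. Between NHD13 Lyl1-knockout and wild type 0 were called, beside 4.49% of all tested genes higher and 3.81% lower. Summed signals were 12.37 to 14.15 in NHD13 Lyl1-knockout, 13.70 to 14.17 in NHD13 and 13.27 to 13.62 in wild type. The sum was thus higher in NHD13 than in wild type, while most called markers were lower. The sum of 14 DN thymocyte markers ran from 14.32 to 16.30 in NHD13 Lyl1-knockout, 15.82 to 16.27 in NHD13 and 16.27 to 16.39 in wild type. Of the 14, 2 were higher and 0 lower in NHD13 Lyl1-knockout than in NHD13, 1 higher and 3 lower in NHD13 than in wild type, and 0 higher and 1 lower in NHD13 Lyl1-knockout than in wild type. Of all tested genes 1361 of 10497 were higher in the first of these comparisons, 11.6% were higher and 12.6% lower in the second, and 3.81% were lower in the third. The counts without NHD13 Lyl1-knockout replicate 1 were 4 higher and 0 lower in the first, 1 and 4 in the second, and 2 and 0 in the third. Over all tested genes they were 1326 and 945, 1477 and 1527, and 321 and 239. Among the 14 markers Rag1, which cuts receptor genes for rearrangement, read 8.22 to 12.13 on NHD13 Lyl1-knockout arrays (median 11.49), 5.38 to 6.68 on NHD13 arrays and 10.87 to 11.31 on wild-type arrays. Ptcra, the partner of the beta chain in alpha beta precursors, was likewise lower in NHD13 than in wild type (−3.39 ± 0.61, limma adjusted p = 0.00306) and higher in NHD13 Lyl1-knockout than in NHD13 (3.20 ± 0.71, limma adjusted p = 0.00906, and 0.0751 in a fit of those 2 groups; 4.36 without NHD13 Lyl1-knockout replicate 1). The other gene lower in NHD13 than in wild type was Rag2 (−1.03, limma adjusted p = 0.0472), lost in 8 of the 12 fits that leave out 1 array. The 1 higher was Dtx1 (1.86, limma adjusted p = 0.00557), which kept its call in those fits. Cd3e gave 0.05 in that comparison (limma adjusted p = 0.967). The part of these marker levels in the values of the 8 genes was not tested.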

How the data were processed

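Signals of 12 Illumina MouseWG-6 v2.0 arrays were used. Per the file headers, each of 45281 probes has a bead-summarised intensity, with no normalisation stated, and a detection p-value. The authors also deposited a log2 table, whose values correlate at 0.9998 with those made here and differ by 0.110 to 0.112 on average. The submitters' processing notes name BeadStudio and limma, without versions. Intensities were normalised with neqc (limma 3.58.1, R 4.3.3, offset 16, background from detection p-values, quantile, log2). Probes with a detection p under 0.05 on at least 3 arrays (20416) were fitted together, 1 mean per group, with lmFit and eBayes, and adjusted by Benjamini and Hochberg over all of them. A gene took its brightest such probe. The annotation gave 34885 probes 1 symbol, 18 several and 10378 none. Standard errors (SE) are of the fit. An "at least" fold sets an undetected group at its arrays' lowest detected signal. The test was checked on simulated data with planted changes, where each probe had the same spread on all arrays. That check does not cover arrays of unequal spread. The array weights here ran from 0.30 (NHD13 Lyl1-knockout replicate 1) to 2.27 (wild-type replicate 6).

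The 8 genes and all lists were chosen with earlier results of these data known. The text names the 8 genes with every probe, Lyl1, Cd3e and Mpo, and up to 6 genes per list with the smallest adjusted p, and the 3 genes most like each by Pearson's r. Xist was named after its values were seen. Alternatives were the deposited log2 table, median scaling, no background correction, other filters on dim probes, 2 groups only, a replicate block, array weights, the background class, the mean of a gene's probes and leaving out each array.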

Additional observations from a re-analysis of the deposited data

How the results depend on the processing

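Of the 6 tested genes, 3 were called for NHD13 Lyl1-knockout against NHD13, and 3 to 4 without 1 array each. With only the 2 groups, with the replicate block, and with the background class as a block, 1 was called. For NHD13 Lyl1-knockout against wild type 1 was called, and 1 to 2 without 1 array. For NHD13 against wild type 3 were called, and 2 to 4 without 1 array. The other alternatives gave 1 (replicate block) to 4, with 2 under the class as a block. All called probes numbered 4284 of 20416 for NHD13 Lyl1-knockout against NHD13, and 2357 (without NHD13 replicate 2) to 4648 without 1 array. In the other alternatives, the replicate block among them, they numbered 1998 (only the 2 groups) to 5798, and 3064 with the class as a block. For NHD13 Lyl1-knockout against wild type they numbered 1953, 2996 under median scaling, 3045 with the class as a block, 1270 within a class, and 1123 (without NHD13 Lyl1-knockout replicate 1) to 2131 without 1 array. For NHD13 against wild type they numbered 4295, and 2246 (without NHD13 replicate 3) to 5084 without 1 array. The other alternatives gave 3517 to 5807, with 3583 under the class as a block. The cause of these moves was not tested. The fits that leave out arrays or a group also hold fewer arrays. Deviations of same-numbered replicates of 2 groups, taken for replicates 1 to 3, correlated at −0.149 to 0.167. This does not decide whether the numbers pair samples, since wild-type replicates 4 to 6 were not compared. Under the replicate block Trgv5 gave limma adjusted p = 0.0817 for NHD13 against wild type and 0.0564 for NHD13 Lyl1-knockout against NHD13. Sox13 gave limma adjusted p = 0.0624 in NHD13 against wild type. Blk ILMN_2976441 gave limma adjusted p = 0.0585 for NHD13 Lyl1-knockout against NHD13, and Blk ILMN_2697505 0.0946 for NHD13 against wild type. Values that changed sign were none of them called. In NHD13 Lyl1-knockout against wild type they were, with array weights, Trgv5 (0.34), Blk ILMN_2697505 (0.0501) and Il17re ILMN_2634933 (0.17), and, with the mean of its probes, Il17re (−0.0333). In NHD13 against wild type they were Il17re ILMN_3163006 with the replicate block (0.0108), and Zbtb16 under median scaling (0.0746), array weights (0.0764) and the class as a block or within it (0.0386). Without 1 array, Il17re ILMN_2634933 ran from −0.0229 to 1.25 for NHD13 Lyl1-knockout against NHD13. Against wild type, NHD13 Lyl1-knockout ran from −1.11 to 0.52 for Trgv5, −0.92 to 0.16 for Blk ILMN_2697505, −0.70 to 0.39 for Il17re ILMN_2634933 and −0.27 to 0.59 for ILMN_3163006. NHD13 ran from −0.92 to 0.11 for Il17re ILMN_3163006 and −0.21 to 0.0849 for Zbtb16. Without background correction the differences of dim probes shrank by over 1.5 times with their calls kept, among them 5830411N06Rik, Blk ILMN_2697505 (−1.15 for NHD13 Lyl1-knockout against NHD13 and 1.01 for NHD13 against wild type) and Rora (−1.55 for NHD13 Lyl1-knockout against NHD13). The low signal of Maf, Il23r and Zbtb16, near the background, limits what these arrays show of them.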
